A study of Mus musculus with 8 samples.

Results

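The cycling stem nuclei are bone marrow nuclei that carried RNA of the stem cell genes Hlf and Mecom together with RNA of Top2a, the DNA topoisomerase that untangles chromosomes in dividing cells. They were chosen on raw counts of unique molecular identifiers (UMIs), each of which stands for 1 captured RNA molecule: Hlf at least 3, Mecom at least 5, Top2a at least 3, Vwf 0, Mpo at most 2, Dntt at most 1, Car1 0 and Itga2b at most 1. The last 5 genes mark platelet, myeloid, lymphoid, erythroid and megakaryocyte branches. Of 8708 nuclei in the table, 200 met the rule, which is 2.30% (95% exact binomial interval 1.99 to 2.63). Without the condition on Top2a, 776 nuclei passed, so 25.8% (22.7 to 29.0) of the nuclei with a stem cell profile had Top2a at 3 or more. Because measured values of these genes chose the nuclei, their levels below are a description.

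The nuclei came from LSK cells, the lineage-negative, Sca1-positive, ckit-positive marrow fraction that holds stem cells and early progenitors. The 10x multiome assay read RNA in each nucleus. By the labels, RNA samples came from mice with the T58A mutation of MYC (2 samples) and from WT littermates (2 samples), each pooled from 2 mice; age is not given in the sources used here. Barcodes end in a suffix from 1 to 4, which splits the table into 4 barcode sets, and nothing used here ties a set to a genotype, a replicate or a mouse. T58A and WT were therefore not compared, the table is 1 pooled sample, its name gives T58A alone so that WT nuclei may not be in it, and no p-value was made from nuclei.

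The 200 nuclei held 1694949 UMIs, with 2442 to 24384 per nucleus and a median of 7729, against a median of 4147.5 over all nuclei. Sets 1 to 4 gave 41, 18, 39 and 102 of them, which is 28.9%, 18.2%, 21.9% and 28.6% of the nuclei that passed the other gates in each set. The share of mitochondrially encoded RNA was 18.0%, 8.23%, 18.7% and 8.39% in the 4 sets. Barcode sequences that recur in more than 1 set numbered 36 in the table, and 0 of them were among the cycling stem nuclei. A score against simulated doublets marked 20 of the 200 (10.0%, 6.22 to 15.0). By its rule it marks the highest 5% of nuclei in each set, which gave 5.01% of all nuclei. Values are also given without the marked nuclei where that matters.

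Adult blood stem cells are known to spend most of their time outside the cell cycle, and to divide rarely. A dividing cell loads MCM helicases on its DNA, copies it in S phase, and then makes the condensins, kinesins and kinetochore proteins that fold and separate chromosomes in G2 and mitosis. D-type cyclins with Cdk4 or Cdk6 open the way out of G1, and transcription factors of the E2F and the MYB-MuvB and FOXM1 families drive S phase and mitosis genes through distinct promoter elements.

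Top2a and many, but not all, of the mitosis genes described below hold sequence matches to such elements. The start regions of 4 genes with large or contrasting differences are shown for that reason. Each line gives bases 250 before to 50 after the annotated RNA start on the gene's own strand, 5′ to 3′, from RefSeq on GRCm38.p6. Capitals mark 3 motifs searched on both strands, the cell cycle homology region (CHR, TTTGAA), the NF-Y box (CCAAT) and an E2F motif (TTTNNCGC). The regions are chr11:99024140-99024439 on the minus strand for Top2a, chr19:37376132-37376431 on the plus strand for the spindle kinesin gene Kif11, chr9:122950831-122951130 on the plus strand for the kinesin gene Kif15, and chr1:128359656-128359955 on the minus strand for the helicase subunit gene Mcm6.
Top2a: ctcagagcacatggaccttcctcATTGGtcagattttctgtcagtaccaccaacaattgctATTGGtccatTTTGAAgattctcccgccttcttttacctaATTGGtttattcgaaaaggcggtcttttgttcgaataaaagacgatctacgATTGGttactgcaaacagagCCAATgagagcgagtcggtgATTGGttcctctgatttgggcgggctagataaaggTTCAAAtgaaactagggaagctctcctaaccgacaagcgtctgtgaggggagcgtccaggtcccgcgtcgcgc
Kif11: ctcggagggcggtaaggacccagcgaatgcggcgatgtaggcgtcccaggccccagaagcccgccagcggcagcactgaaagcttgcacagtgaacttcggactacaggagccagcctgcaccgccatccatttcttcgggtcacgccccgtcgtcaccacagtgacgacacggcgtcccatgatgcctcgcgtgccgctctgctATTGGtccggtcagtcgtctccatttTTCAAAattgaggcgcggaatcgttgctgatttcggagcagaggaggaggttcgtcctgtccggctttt
Kif15: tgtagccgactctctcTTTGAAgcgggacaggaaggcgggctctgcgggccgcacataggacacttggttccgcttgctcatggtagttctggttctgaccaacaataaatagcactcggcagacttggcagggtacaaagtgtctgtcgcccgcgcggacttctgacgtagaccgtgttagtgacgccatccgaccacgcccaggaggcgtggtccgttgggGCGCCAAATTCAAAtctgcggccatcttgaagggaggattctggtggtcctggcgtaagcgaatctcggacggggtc
Mcm6: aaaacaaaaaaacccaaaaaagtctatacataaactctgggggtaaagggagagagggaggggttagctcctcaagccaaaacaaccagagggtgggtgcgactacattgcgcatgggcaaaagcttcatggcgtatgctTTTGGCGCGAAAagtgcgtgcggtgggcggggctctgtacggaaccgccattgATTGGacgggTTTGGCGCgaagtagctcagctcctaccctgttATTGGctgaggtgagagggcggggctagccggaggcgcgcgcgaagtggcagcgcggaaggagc

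The Top2a region held 2 CHR and 6 NF-Y matches, with the CHR nearest the start beginning at base -23. Kif11 had its CHR at -19 and an NF-Y match at -45, and Kif15 had a CHR at -19 directly after an E2F match at -27. Mcm6 had no CHR, 2 NF-Y matches and 3 E2F matches, of which the pair at -110 and -106 overlap on opposite strands. Among 81 windows of the 73 mitosis genes with a RefSeq entry, out of 85 listed, 66.7% held a CHR, 69.1% an NF-Y box and 18.5% an E2F motif. In 78 windows of 67 of the 86 replication genes the shares were 19.2%, 55.1% and 37.2%. Over all 32851 windows they were 17.9%, 37.4% and 5.17%. The CHR was thus more frequent in mitosis windows and the E2F motif in replication windows than in either other group. A match is a description of these letters and shows neither binding nor use.

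The first question was whether nuclei picked on Top2a carry other cell cycle RNA, and which parts of the cycle. The comparison took nuclei that passed the same gates with Top2a at 0, matched within the same barcode set on total UMIs (the deeper of a pair at most 25% above the other, up to 3 per cycling nucleus). Of the 200 cycling stem nuclei, 149 found a match among 213 Top2a 0 nuclei; the other 51 were deeper, with a median of 10902 UMIs. Median depth still differed, at 6763 UMIs in the matched cycling nuclei and 5074 in the Top2a 0 nuclei, because shallower nuclei found more matches. The mitochondrial share was 12.5% in the cycling stem nuclei and 11.7% in the Top2a 0 nuclei. The doublet score marked 8.05% of these matched cycling stem nuclei and 3.29% of the Top2a 0 nuclei. Reading every nucleus at 3000 UMIs removes the depth difference from counts of detected genes.

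At that depth the cycling stem nuclei expressed both replication and mitosis genes, at wide ranges. A median of 23 of 85 mitosis genes (condensins, kinesins, kinetochore, cytokinesis and mitotic kinase genes, without Top2a) was detected in 197 cycling stem nuclei, against 4 in 195 matched Top2a 0 nuclei. The middle 50% of nuclei lay between 15 and 30 genes in the cycling stem nuclei and between 3 and 6 in the Top2a 0 nuclei. Of 86 replication genes, medians of 20 and 7 were detected. By barcode set the mitosis medians were 25, 23, 21 and 22 in the cycling stem nuclei, against 4, 4, 3.5 and 4 in the Top2a 0 nuclei, so the sets of the groups did not overlap. At least 3 mitosis genes were found in 100% (98.1 to 100) of cycling stem nuclei and in 77.9% (71.5 to 83.6) of Top2a 0 nuclei, a mark that separated them little. At least 5 were found in 97.5% and 46.2%. The range in the cycling stem nuclei ran down to 4 genes and that of the Top2a 0 nuclei up to 24, so single nuclei did overlap. Intervals here and below cover counting error only.

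**Figure D1:**
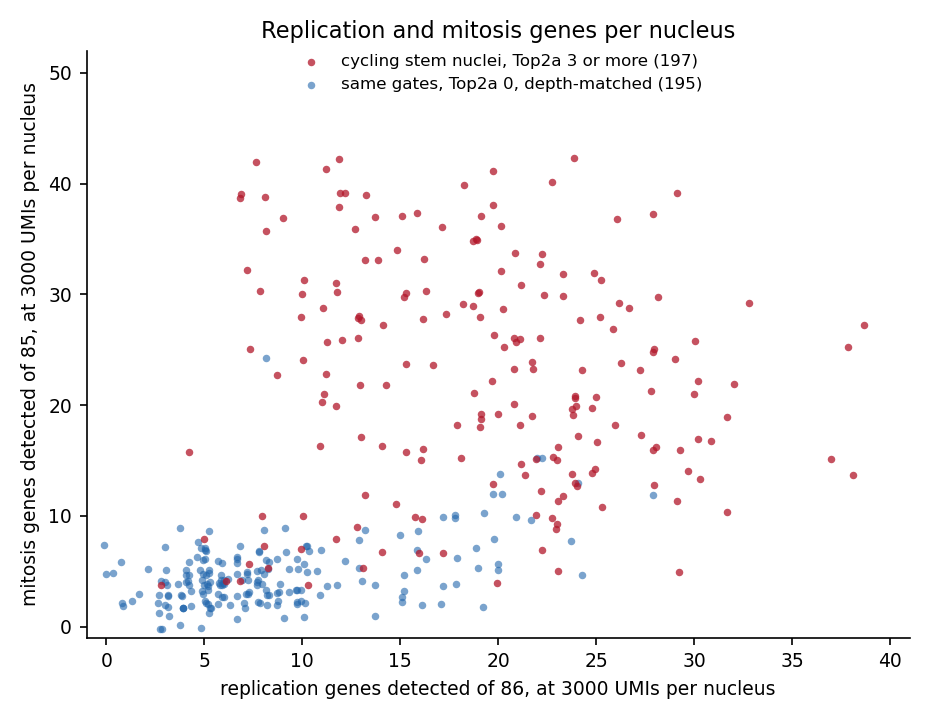
Replication genes (x axis, of 86) against mitosis genes (y axis, of 85) detected in each nucleus after thinning to 3000 UMIs, with points shifted slightly to show overlap. Red points are 197 cycling stem nuclei, with medians of 20 and 23, and blue points are 195 depth-matched Top2a 0 nuclei, with medians of 7 and 4.

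Across genes, counts were summed over each group and scaled to counts per 1000000 UMIs (CPM). A gene with at least 50 counts over both groups was measured, and it was called when the ratio of CPM plus 10 was 1.5-fold or more and every one of the 4 sets had the same direction. By this description 322 of 6306 measured genes (5.11%) were called higher and 267 (4.23%) called lower in cycling stem nuclei than in Top2a 0 nuclei, and the median log2 ratio over all of them was -0.03. Log2 ratios below are of CPM plus 10, and folds are ratios of CPM. The share of genes called is the background against which each list is read.

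Spindle genes had the highest list median. Kif15 had 344, 207, 245 and 350.2 CPM in sets 1 to 4 of the cycling stem nuclei, against 11.9, 7.77, 13.3 and 13.6 CPM in the Top2a 0 nuclei. Kif11, the motor that pushes spindle poles apart, had 499, 276, 377 and 482 CPM in the cycling stem nuclei and 27.8, 23.3, 39.8 and 25.6 CPM in the Top2a 0 nuclei. Every set of cycling nuclei lay above every set of Top2a 0 nuclei for both kinesins. Their pooled ratios were 25.1 (95% interval 15.0 to 45.4) and 15.7 (95% interval 11.1 to 22.9). Kif15 had a UMI in 77.9% of cycling stem nuclei and 4.23% of Top2a 0 nuclei, at the median depths of 6763 and 5074. Of 19 measured spindle and kinesin genes, 18 were called higher and 0 lower, with a median log2 ratio of 2.59, against -0.03 over all genes. The member not called was Iqgap3, with 57 and 2 counts.

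The other mitosis lists were higher as well. All 17 measured kinetochore and spindle checkpoint genes were called higher (median log2 ratio 2.28), led by the scaffold gene Knl1 and the checkpoint kinase gene Bub1. Knl1 had 445, 335, 255 and 442 CPM in sets 1 to 4 of the cycling stem nuclei and 15.9, 23.3, 70.7 and 30.7 CPM in the Top2a 0 nuclei, 11.6-fold higher pooled, with no overlap of the sets. Condensin and chromosome structure genes were called higher in 12 of 12 (median 2.08). Among these the proliferation marker Mki67 had 755, 404, 566 and 714 CPM in the cycling stem nuclei and 95.2, 46.6, 66.3 and 81.8 CPM in the Top2a 0 nuclei, a ratio of 8.53 (95% interval 6.87 to 10.7). Cytokinesis genes were called higher in 11 of 11 (median 2.32), with the midbody gene Cep55 at 115 CPM against 5.86 CPM. Mitotic cyclins and kinases were called higher in 8 of 8 (median 1.72), but 10 of the 18 listed were not measured. The short mitotic genes among those had few nuclear counts: Ccnb1, the mitotic cyclin, had 36 and 5 counts, and Plk1, the polo kinase, 10 and 4.

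DNA replication genes were higher as well, by smaller ratios. Pola1, the catalytic subunit of the polymerase that primes synthesis, had 702, 1222, 844 and 1100.2 CPM in sets 1 to 4 of the cycling stem nuclei, against 249.9, 132, 371 and 385 CPM in the Top2a 0 nuclei. The sets did not overlap, and the pooled ratio was 3.02 (95% interval 2.69 to 3.40). It was found in 95.3% of cycling stem nuclei and 62.0% of Top2a 0 nuclei, so this RNA was common in both. Fork and nucleotide supply genes were called higher in 18 of 24 measured (median log2 ratio 1.14). The clamp gene Pcna, at 158 and 121 CPM, was not called.

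Licensing genes, which load the MCM helicase on DNA, were called higher in 13 of 17 measured (median 0.98). Cdc45, a helicase partner needed for firing, had 54.3 CPM in cycling stem nuclei and 5.86 CPM in Top2a 0 nuclei. Mcm6 had 159.8, 296, 146 and 195 CPM in the cycling stem sets and 95.2, 101, 137 and 129 CPM in the Top2a 0 sets, 1.56-fold higher pooled and near the 1.5-fold limit, a call lost in 8 of 20 alternatives. For Mcm6 every cycling set lay above every Top2a 0 set, with set 3 the closest pair.

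Repair genes that act at forks were called higher in 18 of 23 measured (median 1.28). Neil3, a DNA glycosylase for damaged bases, had 276, 246, 231 and 318 CPM in the cycling stem nuclei and 11.9, 7.77, 13.3 and 10.2 CPM in the Top2a 0 nuclei. No set overlapped and the pooled ratio was 26.3 (95% interval 15.2 to 50.01), the largest of the repair genes. Brip1, a helicase partner of Brca1, reached 206 against 31.0 CPM. Genes that copy and silence chromatin were called higher in 7 of 10 measured (median 0.98): Hmgb2, a chromatin protein, had 345 and 133 CPM, and Ezh2, the histone methyltransferase of Polycomb, 496 and 213 CPM.

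Among transcription factors of the cycle, 6 of 12 measured were called higher (median log2 ratio 0.72). The repressors E2f7 and E2f8 led, with E2f7 at 94.98 CPM in cycling stem nuclei and 9.21 CPM in Top2a 0 nuclei. Lin9 and Lin54, subunits of the MuvB complex, were called too, at 88.6 against 36.9 CPM and 104 against 37.7 CPM. Foxm1, a mitosis gene activator, had 28 and 3 counts, too few to be measured. The retinoblastoma gene Rb1 had 113 and 117 CPM and was not called.

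**Figure D2:**
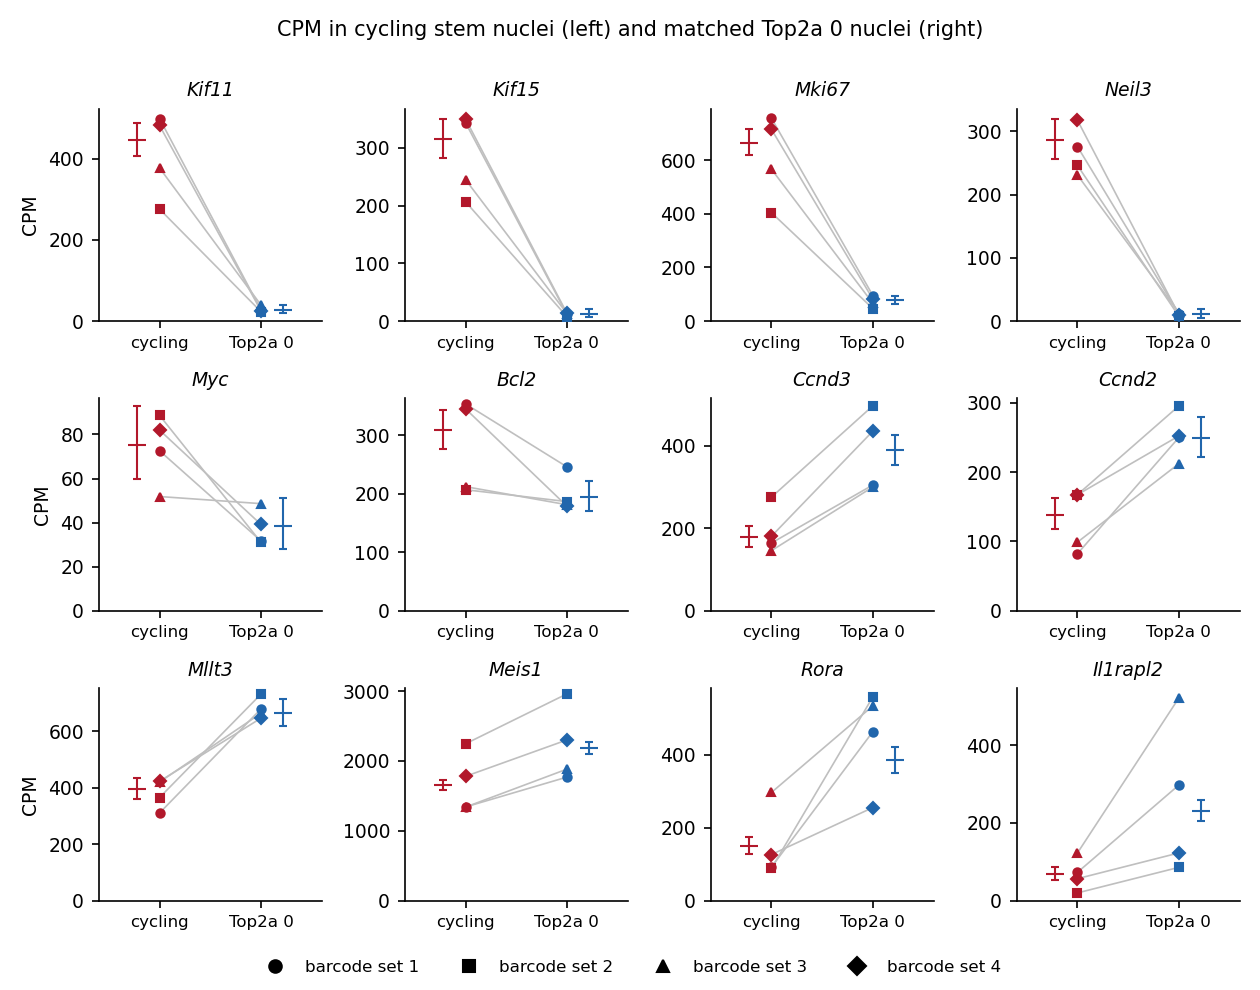
CPM of 12 genes in cycling stem nuclei (red, left) and matched Top2a 0 nuclei (blue, right), 1 symbol per barcode set, with lines joining the same set. Horizontal marks with bars give the pooled CPM and its 95% counting interval. Kif11, Kif15, Mki67 and Neil3 are higher in every cycling set, while Ccnd3, Ccnd2, Mllt3, Meis1, Rora and Il1rapl2 are lower in every cycling set than in its paired Top2a 0 set.

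The measured D-type cyclins did not follow the S phase and mitosis genes. Ccnd3, a D-type cyclin, had 165, 276, 146 and 181 CPM in sets 1 to 4 of the cycling stem nuclei, against 305, 498, 301 and 436 CPM in the Top2a 0 nuclei. Ccnd2 had 82.3, 167, 99.0 and 167 CPM in the cycling stem nuclei and 249.9, 295, 212 and 252 CPM in the Top2a 0 nuclei. All cycling sets lay below all Top2a 0 sets for both cyclins, and the pooled levels were 2.16-fold lower (95% interval 1.83 to 2.57) and 1.80-fold lower (95% interval 1.47 to 2.20). Ccnd1 had 10 counts in cycling stem nuclei and 11 in Top2a 0 nuclei and was not measured.

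Cdk6, the kinase that partners with these cyclins, was abundant in both groups. It had 1496, 1537, 1457 and 1531 CPM in the cycling stem sets and 1146, 536, 862 and 1479 CPM in the Top2a 0 sets, pooled at 1511 and 1190.3 CPM, a ratio of 1.27 (95% interval 1.18 to 1.36) that was not called. Without set 4, where the levels were closest, the log2 ratio was 0.70 in place of 0.34, and at 3000 UMIs it was 0.61. Of 8 measured genes in the G1 list, 1 was called higher and 2 lower (median 0.45). The list median lay between 0.25 and 0.39 in the single sets, and between -0.47 and 0.55 over the alternatives. Ccne2, an S phase cyclin, had 36.2 and 9.21 CPM and was not called, since its direction was not the same in all sets.

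Myc was the G1 list member called higher. It had 72.6, 88.7, 51.9 and 82.0 CPM in the 4 cycling stem sets and 31.7, 31.1, 48.6 and 39.2 CPM in the Top2a 0 sets. Set 3 differed little and the other sets more, with every cycling set above every Top2a 0 set. Pooled, Myc RNA was at 75.1 and 38.5 CPM, a ratio of 1.95 (95% interval 1.34 to 2.86), with a UMI in 38.3% and 18.8% of nuclei. The call was lost in 7 of 20 alternatives. The log2 ratio of 0.81 was 0.45 at 3000 UMIs and 0.52 with looser Hlf and Mecom gates, while with Top2a at 2 or more (0.65), all Top2a 0 nuclei unmatched (0.64), a mean of per-nucleus CPM (0.80) or without the highest doublet scores (0.86) 1 or more sets lost the direction, and 2-fold ended it by its size. Mycn had 8 and 23 counts. Of 29 measured MYC target genes 1 was called higher, the nucleotide synthesis gene Impdh2 at 57.0 against 25.1 CPM, and 1 lower, Ccnd2, with a list median of 0.11. Ribosome biogenesis genes had 0 of 24 called, at a median of 0.11.

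Cell cycle inhibitors were hardly measurable. The p21 gene Cdkn1a had 14 and 7 counts, the p57 gene Cdkn1c 1 and 4, and the p18 gene Cdkn2c 7 and 3, in cycling stem and Top2a 0 nuclei. The p27 gene Cdkn1b had 44.3 and 61.1 CPM and was not called. Of 4 measured members of the list, Btg1, an antiproliferative gene, was called lower at 105 against 185 CPM, a call lost in 4 of 20 alternatives (at 3000 UMIs, with Top2a at 5 or more, with looser gates and at 2-fold). Bcl2, which blocks cell death, was called higher, with 353, 207, 212 and 345 CPM in the cycling stem sets and 246, 187, 181 and 179 CPM in the Top2a 0 sets. For Bcl2 the sets of the groups overlapped, since cycling sets 2 and 3 lay below Top2a 0 set 1, and the pooled ratio was 1.59 (95% interval 1.34 to 1.88). The call was lost in 6 of 20 alternatives, among them without set 4, where the log2 ratio of 0.64 became 0.34, and at 3000 UMIs, with 1 match per nucleus, with a mean of per-nucleus CPM and with stricter gates.

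Stem cell genes stayed detectable, and some were lower. The Hlf and Mecom gates count raw UMIs, and the matched cycling stem nuclei were deeper (median 6763 against 5074 UMIs). The same gates therefore admit lower CPM of both genes there, and the part of this in the lower levels was not tested. Hlf and Mecom, which chose the nuclei, had 860.3 and 1807 CPM in cycling stem nuclei and 1275 and 2203 CPM in Top2a 0 nuclei. Meis1, a homeobox factor of stem cells that the rule did not use, had 1341, 2246, 1339 and 1780.1 CPM in the cycling stem sets and 1769, 2962, 1883 and 2302 CPM in the Top2a 0 sets. Each cycling set lay below its own Top2a 0 set while the groups overlapped, and with 1656 and 2181 CPM pooled Meis1 was not called (log2 -0.40). It was found in 100% and 99.1% of nuclei. Of 29 measured stem cell transcription factors 0 were called higher and 6 lower, Rora, Klf12, Mllt3, Hoxa9, Prdm16 and Nfia, with a list median of -0.30.

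Mllt3, a chromatin reader that maintains stem cells in culture, had 309.9, 365, 419.6 and 422 CPM in the cycling stem sets and 678, 731, 663 and 646 CPM in the Top2a 0 sets. No sets overlapped, and the pooled level was 1.68-fold lower (95% interval 1.495 to 1.90). Rora, a nuclear receptor, had 92.0, 88.7, 297 and 126 CPM in the cycling stem sets against 464, 559.7, 535 and 256 CPM in the Top2a 0 sets. Cycling set 3 lay above Top2a 0 set 4, so Rora overlapped between sets while each cycling set lay below its own pair; pooled it was 2.58-fold lower (95% interval 2.16 to 3.10). Prdm16, a transcription factor needed by stem cells, was called lower at 116 against 189 CPM, but its log2 ratio of -0.66 shrank to -0.57 without set 1 and to -0.40 with stricter gates, which ended the call.

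Surface genes gave 0 of 21 measured members higher and 4 lower (median -0.14). Lhcgr, a gonadotropin receptor gene, had 14.5, 9.85, 14.1 and 10.3 CPM in the cycling stem sets and 79.3, 117, 92.8 and 39.2 CPM in the Top2a 0 sets, with 11.8 against 66.2 CPM pooled. No set overlapped, on 13 and 79 counts. Cd63, a tetraspanin gene, was called lower at 28.9 against 62.0 CPM. Fgd5, a marker of long-term stem cells, was called lower at 38.0 against 63.7 CPM; without sets 1, 2 or 3 its log2 ratio of -0.62 became -0.46, -0.48 or -0.55, below the limit, and without set 4 it became -1.60. Procr, the EPCR gene used to sort stem cells, had 10 and 26 counts and was not measured. Kit (548 and 681 CPM), Cd34 (282 and 245), Flt3 (368 and 399.5) and Cd48 (36.2 and 26.8) were not called in either direction. Quiescence and retention genes had 0 of 22 measured called higher and 4 lower (median -0.27), among them the BMP receptor gene Bmpr2 at 124 against 218 CPM and Txnip at 83.2 against 129.8 CPM.

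Among called genes with at least 100 counts, the lowest ratios were in genes with other functions. Il1rapl2, a synaptic adhesion gene of the interleukin receptor family, had 72.6, 19.7, 123 and 56.4 CPM in the cycling stem sets and 298, 85.5, 522 and 123 CPM in the Top2a 0 sets. Each cycling set was below its pair, with overlap through the low set 2 of the Top2a 0 nuclei, and the pooled level was 3.36-fold lower (95% interval 2.60 to 4.39). Kdm7a, a histone demethylase gene, had 40.7 and 132 CPM, and the growth factor receptor adaptor gene Grb10 25.3 and 84.6 CPM. Gimap8, of a family of lymphocyte GTPases, had 19.9 and 79.6 CPM. Plcl1, Sugct, Hacd4, B3galt1, Abcg3 and 2210408F21Rik were also among the lowest 12, with Rora, at ratios between 2.58-fold and 3.21-fold lower. A list of 22 long adhesion and synaptic genes, drawn up from earlier results of these data and so no independent evidence, had 10 of 19 measured called lower and 0 higher (median -0.80). Among all 204 measured genes that span 300 kb or more, 14.2% were called lower and 2.45% higher.

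**Figure D3:**
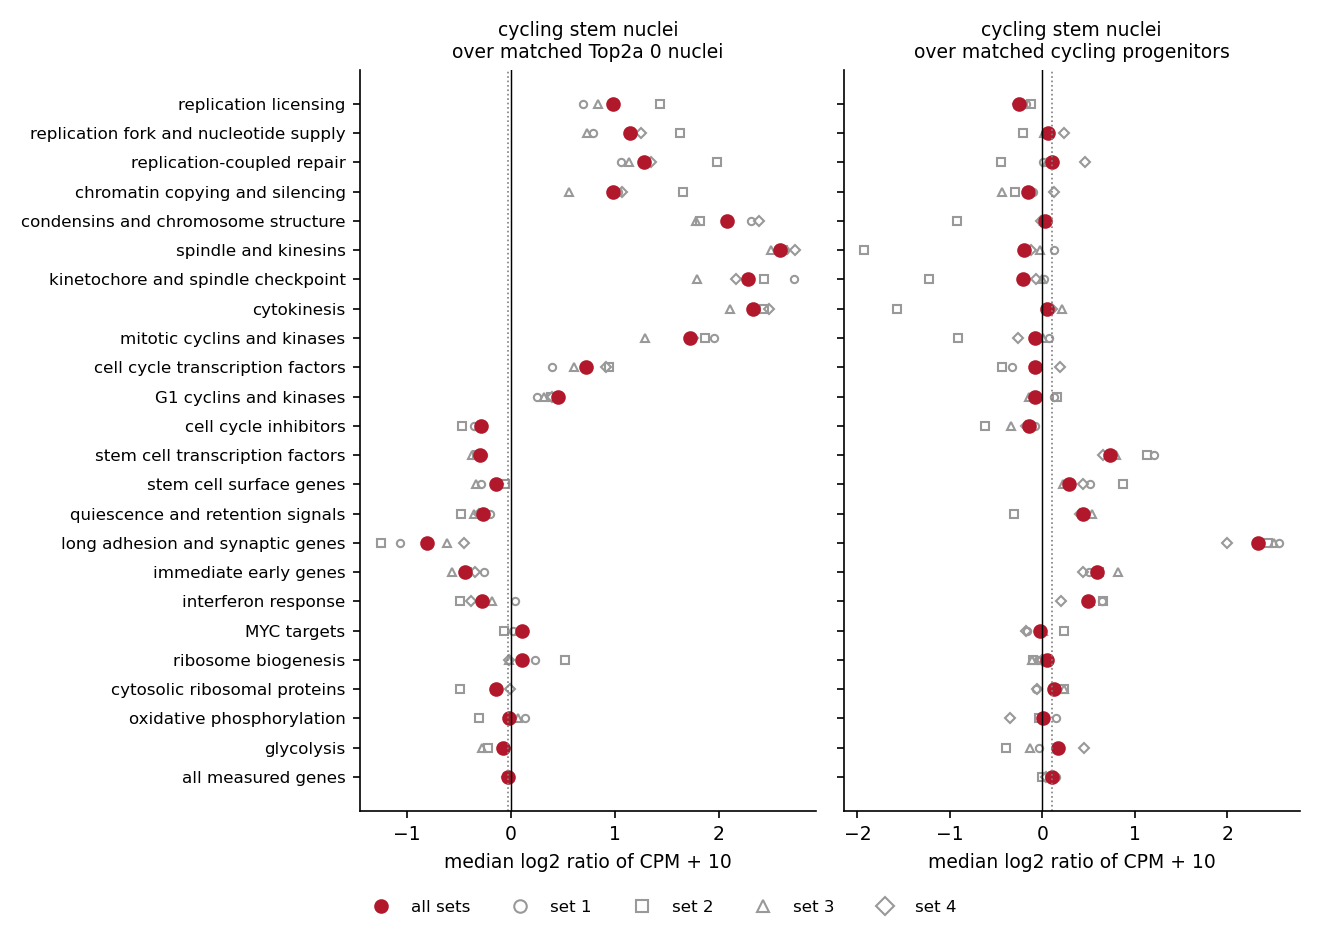
Median log2 ratio of CPM plus 10 per gene list, for cycling stem nuclei over matched Top2a 0 nuclei (left) and over matched cycling nuclei without Hlf or Mecom UMIs (right). Red points pool all sets, open grey symbols are barcode sets 1 to 4, and the dotted line is the median of all measured genes, -0.03 on the left and 0.10 on the right. Replication and mitosis lists lie between 0.98 and 2.59 on the left and between -0.26 and 0.11 on the right.

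The change with Top2a was gradual for some genes and late for others. Among the 776 gated nuclei, 389 had Top2a at 0, 121 at 1, 66 at 2, 86 at 3 to 5 and 114 at 6 or more, with median depths of 3986, 4895, 5810.5, 6507.5 and 8690 UMIs. Depth was therefore higher in each class than in the one before, and its part in these levels was not tested, other than by detection at 3000 UMIs. There the median number of mitosis genes was 4, 6, 7, 16 and 28 in these classes, and that of replication genes 7, 10, 15, 20 and 20. Replication genes thus reached their highest class median at 3 to 5 Top2a UMIs and mitosis genes at 6 or more.

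Pola1 had 304, 605, 771, 975 and 913 CPM in the same classes, with the class at 1 UMI already well above that at 0, whereas Kif11 had 25.1, 46.4, 88.9, 219 and 561 CPM. Myc had 41.02, 46.4, 44.4, 80.6 and 63.5 CPM, and its level at 1 and 2 Top2a UMIs lay within the counting interval of the class at 0. Cdk6 had 1047, 1153, 1288, 1681 and 1741 CPM, higher in each class than in the one before. Ccnd3, with 412, 421, 339.9, 209 and 207 CPM, changed mainly between the classes at 1 and at 3 to 5. Rora had 431, 335, 302, 168 and 131 CPM and Mllt3 741, 692, 638, 488 and 386 CPM, lower in every class than in the one before. Meis1, at 2298, 2065, 2279, 1696 and 1829.9 CPM, had no such order.

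**Figure D4:**
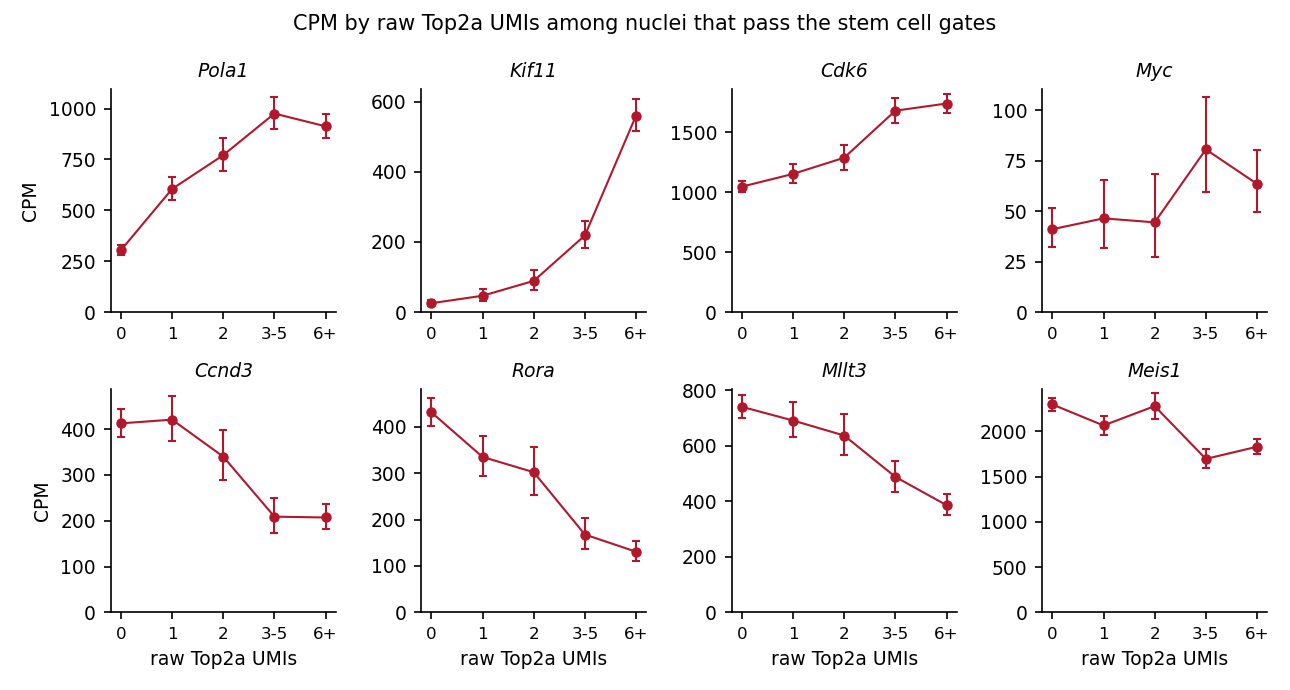
Pooled CPM of 8 genes with 95% counting intervals in gated nuclei with 0, 1, 2, 3 to 5 and 6 or more raw Top2a UMIs (389, 121, 66, 86 and 114 nuclei). Pola1 and Cdk6 are higher from the lowest classes on, Kif11 mostly in the last class, and Ccnd3, Rora and Mllt3 are lower in the classes at 3 or more.

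The limit of 3 Top2a UMIs falls inside this gradient. The 32 nuclei with exactly 3 lay just inside it, and the 31 of them that reached 3000 UMIs had a median of 10 mitosis and 16 replication genes. The 66 nuclei with 2 lay just outside, with medians of 7 and 15. At the other gates, 37 cycling stem nuclei had Hlf at 3 and 44 more nuclei would have joined at 2, 21 had Mecom at 5 and 12 lay at 4, and 28 lay at 3 Mpo UMIs, 8 at 2 Dntt, 17 at 1 Vwf, 14 at 1 Car1 and 15 at 2 Itga2b.

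Within the cycling stem nuclei, replication and mitosis genes did not run together. Across 197 nuclei at 3000 UMIs the numbers of replication and mitosis genes had a Pearson r of -0.08 and a Spearman rho of -0.12, a description over nuclei that share libraries. The nuclei were divided by mitosis genes into 68 with 4 to 17, 57 with 18 to 27 and 72 with 28 to 42, so that mitosis genes differ between the groups by construction. Their median total depths were similar, at 7676.5, 7453 and 8111.5 UMIs. The median number of replication genes was 22, 21 and 17.

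At 3000 UMIs the helicase gene Mcm2 had 73.5, 35.1 and 4.63 CPM in nuclei with few, intermediate and many mitosis genes. Mcm6 had 245, 251 and 106 CPM, and Pola1 1088, 1146 and 625 CPM. These 3 S phase RNAs were lowest where mitosis genes were most numerous. Counts were few for Mcm2 (15, 6 and 1) and for Rrm2, a ribonucleotide reductase subunit gene (7, 1 and 0). Cenpf, a late kinetochore gene, had 53.9, 211 and 509 CPM and Cdc20, the activator of the anaphase-promoting complex, 4.90, 11.7 and 55.6 CPM (1, 2 and 12 counts). The intervals of the first and last groups did not overlap for Mcm2, Mcm6, Pola1, Cenpf and Cdc20. They did overlap for the other S phase genes examined, Mcm3, Mcm4, Mcm5, Mcm7, Pcna, Brca1, Ccne2 and Rrm2. Pcna had 152, 193 and 139 CPM and Mcm3 88.2, 64.3 and 60.2 CPM.

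Stem cell genes varied less along this axis. Hlf had 995, 778 and 778 CPM, Mecom 1848, 1883 and 1745 CPM and Meis1 1769.6, 1871 and 1694 CPM in nuclei with few, intermediate and many mitosis genes. Summed UMIs of the stem cell markers that the rule did not use had a Pearson r of -0.08 and a Spearman rho of -0.05 with mitosis genes over the same 197 nuclei. Myc had 88.2, 46.8 and 50.9 CPM and Cdk6 1426, 1561 and 1792 CPM. Cdkn1b had 19.6, 40.9 and 78.7 CPM and Ccnd1 34.3, 0 and 4.63 CPM, both on few counts.

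**Figure D5:**
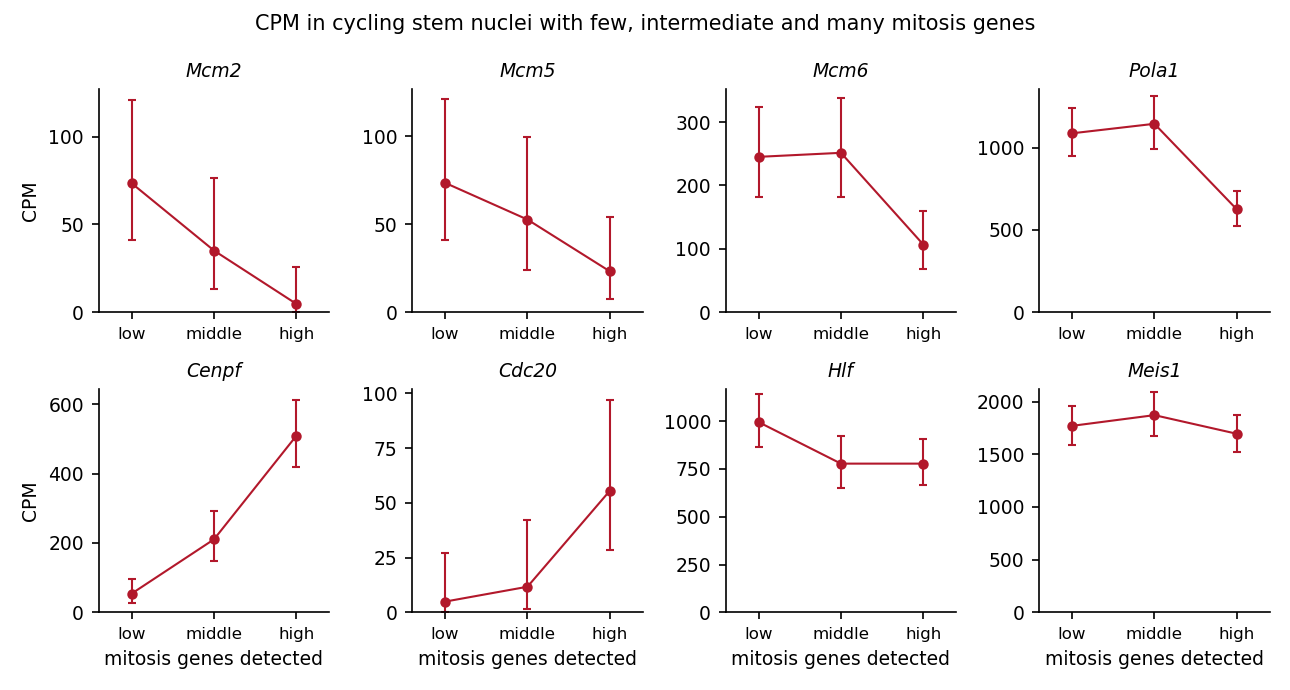
Pooled CPM of 8 genes, with 95% counting intervals, in cycling stem nuclei thinned to 3000 UMIs and divided by the number of mitosis genes detected: 68 nuclei with 4 to 17 (low), 57 with 18 to 27 (middle) and 72 with 28 to 42 (high). Replication genes Mcm2, Mcm6 and Pola1 are lowest in the high group, Cenpf and Cdc20 highest there by construction, and the intervals of Meis1 overlap.

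A second comparison described how the cycling stem nuclei differed from dividing nuclei without a stem cell profile. These had Top2a at 3 or more, no Hlf or Mecom UMI and the same other gates, and 171 of 276 were matched to 116 cycling stem nuclei, with median depths of 6445 UMIs in the cycling stem nuclei and 4824 in the others. The comparison shares the cycling stem nuclei with the one above, so the results are not independent. The doublet score marked 5.17% of these matched cycling stem nuclei and 1.17% of the others. Cycle genes lay close together in sets 1, 3 and 4. Medians of 23 mitosis and 19 replication genes were detected at 3000 UMIs in the cycling stem nuclei, and 26 and 18 in the others. Kif11 had 529.9, 165, 445 and 568 CPM in the cycling stem sets and 464, 769, 425 and 456 CPM in the other sets, with a ratio of 0.998 (95% interval 0.867 to 1.15). In set 2, with 11 nuclei on each side, the 5 mitosis lists had median log2 ratios between -1.92 and -0.91, while in the other sets they lay between -0.26 and 0.22. Mki67 had 725 and 925 CPM and was not called.

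In this comparison 516 of 5097 measured genes (10.1%) were called higher and 184 (3.61%) lower in cycling stem nuclei. The nuclei differed in mitochondrial share, 14.3% in cycling stem nuclei and 21.0% in the others, and with mitochondrially encoded genes left out of the total the counts were 428 higher and 266 lower. Of 24 measured fork and nucleotide supply genes 1 was called higher and 0 lower, and of 18 measured licensing genes Ticrr, an origin firing gene, was called lower at 54.3 against 106 CPM. Among mitosis genes the exceptions were Bub3 (41.7 against 75.5 CPM) and Ccna2 (24.0 against 49.3 CPM), both lower. Medians of these 9 lists lay between -0.26 and 0.11, around the 0.10 of all genes. Cdk6 had 1428 and 1490.1 CPM, and Ccnd3 167 and 127 CPM, and neither was called.

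Stem cell genes other than Hlf and Mecom differed as well, between groups chosen at opposite ends of those genes. Genes whose RNA goes along with Hlf and Mecom RNA can differ by this choice alone. These values are therefore a description. Meis1 had 1376, 2448, 1437 and 1538 CPM in the cycling stem sets and 409, 354, 306 and 497 CPM in the other sets, without overlap, a ratio of 3.99 (95% interval 3.55 to 4.50). Prdm16 had 112, 110.3, 83.7 and 112 CPM in the cycling stem sets and 12.1, 0, 3.52 and 9.20 CPM in the others, also without overlap. Of 25 measured stem cell transcription factors 14 were called higher and 2 lower (Foxo1 and Bcl6), with a median of 0.74. Of 13 surface genes 5 were called higher, Itga6, Pcdh7, Cd34, Kit and Eng, and 2 lower, Il6st and Cd48. Cd34 had 283 against 107 CPM and Kit 500.3 against 236 CPM. Mllt3, at 384 against 252 CPM, only just passed the limit and lost its call in 9 of 21 alternatives. Counts of Fgd5 were 26 and 1, too few to be measured.

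The list of long adhesion and synaptic genes, chosen on these data and so no independent evidence, had 12 of 16 measured called higher and 0 lower (median 2.34). Among all 188 measured genes that span 300 kb or more, 34.6% were called higher and 7.45% lower here. The 12 highest ratios among called genes with at least 100 counts included Samd12 and Adgrl4. Samd12 had 232, 309, 489 and 355 CPM in the cycling stem sets and 42.5, 0, 10.5 and 46.0 CPM in the others, and Adgrl4, an adhesion receptor gene, 2473, 2448, 1842 and 2446 CPM and 285, 171, 257 and 382 CPM. Neither gene overlapped between groups, at 12.01-fold and 7.89-fold higher pooled. Gcnt2, a glycosyltransferase gene, reached 653 against 75.5 CPM, and Il15, a lymphocyte cytokine gene, 328 against 55.8 CPM. Csgalnact1, Ptprm, Dlg2, Klf12, Myct1, Cadps2 and Spns2 were also among the highest 12. Several of these (Samd12, Klf12, Dlg2) were among the genes called lower than in Top2a 0 nuclei, so the cycling stem nuclei held an intermediate level of each.

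Of the lineage markers measured, 6 of 10 lymphoid (median log2 ratio -1.65), 6 of 7 dendritic and monocyte (-2.27), 3 of 6 myeloid (-2.64) and 1 of 6 erythroid markers (-2.62) were called lower in cycling stem nuclei than in the others, and 1 myeloid marker, Csf3r, was called higher. Ebf1, the B lineage factor, had the lowest ratio of all called genes, with 12.6 CPM in cycling stem nuclei and 1129.9 CPM in the others, where 21.1% of nuclei had a UMI. Irf8, of monocytes and dendritic cells, had 16.4 against 382 CPM. Markers summed over the lymphoid list came to 1765 CPM in all cycling stem nuclei and 4081 CPM in the matched others, dendritic markers to 555 and 1108 CPM, and erythroid markers to 176 and 1376 CPM. With nuclei that carried B, dendritic or erythroid genes left out of the others, a choice made after seeing these values, 58 cycling stem nuclei faced 67, and 247 genes were called higher and 75 lower. Stem cell transcription factors then had 10 of 20 measured called higher and 1 lower (median 0.64), while Kit (log2 0.36) lost its call.

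Myc was called higher here too, with 74.4, 77.2, 44.1 and 88.9 CPM in the cycling stem sets and 48.5, 24.4, 24.6 and 50.6 CPM in the other sets. Cycling set 3 lay below sets 1 and 4 of the others, and the pooled ratio was 1.79 (95% interval 1.16 to 2.81). The call was lost in 7 of 21 alternatives, among them at 3000 UMIs (log2 0.27), with the stricter choice of the others (0.06), with Top2a at 2 or more (0.48) and with looser gates (0.36). Bcl2 was called lower than in the others, at 358 against 695 CPM, and all 4 cycling sets lay below their pairs, a call lost in 1 of 21 alternatives, at 2-fold.

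Marker genes were set against the label. Of the sort genes, Kit had 548 CPM in matched cycling stem nuclei, while Ly6a, which encodes Sca1, had 11 counts there and 18 in Top2a 0 nuclei. Of 8 stem cell markers that the rule did not use, 6 were higher in the 200 cycling stem nuclei than in all other nuclei, and Rarb and Hoxb5, with 1 UMI each, were not. Among those 6 the differences were small for Procr (7.67 against 6.04 CPM, on 13 counts) and Ctnnal1 (27.1 against 22.3 CPM, on 46 counts). Procr had 21.8 CPM in matched Top2a 0 nuclei. Summed without the gate genes, stem cell markers came to 2394 CPM in the cycling stem nuclei, 3159 CPM in matched Top2a 0 nuclei, 667 CPM in the matched cycling nuclei without Hlf or Mecom and 1579 CPM in all other nuclei. Erythroid markers came to 176 CPM and myeloid markers to 280 CPM, against 909 and 702 CPM in all other nuclei, and Rag1, Rag2, Cebpe, Cdh5 and Col1a1 were at 0. The gates on Car1, Mpo, Dntt and Itga2b were set for the cycling stem nuclei and not for all other nuclei. These sums are therefore a description and no check of the label. Of 14 myeloid markers without the gate gene Mpo, 1 was higher than in all other nuclei, Csf3r at 132 against 97.9 CPM. Flt3, a member of the lymphoid and the dendritic list, had 349 against 355 CPM, with a UMI in 72.0% and 51.2% of nuclei. Mpo itself had a UMI in 49.0% of the cycling stem nuclei and 25.8% of matched Top2a 0 nuclei, at median depths of 7729 and 5074 UMIs. Lymphoid markers came to 1765 CPM against 780 CPM in matched Top2a 0 nuclei. A single nucleus held 95.8% of the Ighm UMIs of the matched cycling stem nuclei, so Ighm had 1281 CPM there against 53.6 CPM in the Top2a 0 nuclei and was not called. Without that nucleus the lymphoid list had a median log2 ratio of 0.01 in place of 0.37, and 326 genes were called higher and 274 lower. Without the nuclei with the highest doublet scores 326 were called higher, 289 of them shared with the full comparison, and 271 lower, 219 shared.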

How the data were processed

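Nuclear RNA of sorted LSK marrow cells was measured, and the authors deposited UMI counts, not normalized, for 32285 genes in 8708 nuclei (45723860 UMIs, 0 values that are not whole). Cell Ranger ARC, Seurat, Signac and the build mm10 are named in the submitters' processing notes, while versions, the gene annotation and any filter of nuclei are not given in the sources used here. By the labels there are 8 samples, and 4 of them, of chromatin accessibility (ATAC), were not analysed here. The table has 0 unused columns of other samples. No label ties barcode sets to samples, so the sets enter only by matching and as values side by side, and they are not called replicates.

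Nuclei were selected, matched and summed in Python 3.11.15 with numpy 2.4.6, pandas 2.3.3 and scipy 1.17.1; scikit-learn 1.9.0 gave the doublet score, and figures were drawn with matplotlib 3.10.9. All deposited nuclei were kept; doublets were not removed, and the 5% of nuclei per set with the highest score were left out in an alternative only. Intervals are exact at 95% (Clopper-Pearson for shares, Poisson for CPM, binomial for ratios) and cover counting error only. The gate genes and Top2a were left out of calls. The call rule was tested on simulated data. Named genes are the 12 highest and 12 lowest called genes with at least 100 counts, the 2 members per list with the largest log2 ratio, the gate genes, and a set of stem cell, cyclin, kinase, inhibitor and MYC family genes; not all of them are reported here, and further list members (such as Pola1, Mcm6, Pcna, Ezh2, Lin9, Foxm1, Rb1, Ccnb1, Plk1, Ccne2, Bmpr2, Cd63, Lhcgr, Btg1, Csf3r and Fos) were chosen after their values were seen. Members and the 32 gene lists were chosen with earlier results of these data known. Alternatives concerned depth matching, scaling, weighting, the count minimum, the added CPM, the call rule, the gates, doublets and single sets. Chance tests over nuclei were not run.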

Additional observations from a re-analysis of the deposited data

How the results depend on the processing

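For the genes followed through the alternatives, most log2 ratios stayed within the counting interval of the main comparison. Against Top2a 0 nuclei 799 such values did and 101 did not. Against the other cycling nuclei 834 did, 148 did not and 5 values of called genes reversed direction. Alternatives that changed only the count minimum, the fold limit or the requirement on barcode sets left every log2 ratio as it was. Their values are among those within the interval and could not have moved. Which genes were called changed more. Against Top2a 0 nuclei, 322 genes called higher and 267 lower became 180 and 40 at 2-fold, and the lower ones 154 with a minimum of 100 counts. Leaving out each barcode set in turn gave 267 to 351 higher and 262 to 303 lower. Without set 4, where 3912 genes were measured, 191 of the higher and 129 of the lower calls were shared with the full comparison. Stricter Hlf and Mecom gates, with 4045 genes measured, gave 253 and 211, of which 159 and 99 were shared. With 1 match per nucleus, at medians of 6763 and 5740 UMIs, 319 and 240 were called, of which 279 and 196 were shared, and at 3000 UMIs without matching 275 and 265, with 197 and 129 shared. Against cycling nuclei without Hlf or Mecom, 516 higher and 184 lower became 322 and 101 with a minimum of 100 counts, 223 and 81 at 2-fold, and 247 and 75 with the stricter choice of those nuclei, made after seeing the data, where fewer nuclei and genes were compared. A minimum of 20 counts gave 314 lower, and all those nuclei without matching 890 higher. Leaving out each set gave 440 to 606 higher and 190 to 213 lower. With 2466 genes measured under the stricter choice, 143 of the higher and 24 of the lower calls were shared with the full comparison. Under the stricter choice the dendritic and monocyte list turned to a median of 0.55 and Ebf1 to 0.36, Pax5, Cd74 and H2-Aa to 0.37 and H2-Ab1 to 0.51, on genes that this choice itself removes. The share of nuclei with mitosis genes was 97.5% at 5 genes or more in place of 3, and 100% without any 1 set. No paired analysis was possible because the columns of the table carry no sample or replicate number; the pairing by barcode set matches nuclei within a set and is not one of labelled replicates. Several called genes named in the text lost their calls often. Against Top2a 0 nuclei these included Fgd5 (9 of 20 alternatives), Mcm6 and Txnip (8 each), and Nfia and Myc (7 each). Against the other cycling nuclei they included Tpi1 (17 of 21), Dusp1 (12), Ccna2, Cd48 and Fos (10 each) and Mllt3 (9). Bub3, Foxo1 and Bcl6 lost theirs there in 8 alternatives each. Of 14 listed inhibitors 4 were measured, so most could not be compared at this depth.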

Other observations

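Immediate early and interferon genes were read in both comparisons, which share the cycling stem nuclei. Of 19 measured immediate early genes 0 were called higher and 4 lower than in Top2a 0 nuclei (median log2 ratio -0.44), and of 15 measured against the other cycling nuclei 6 were called higher and 0 lower (median 0.59). Nr4a2, an orphan nuclear receptor of that list, had 64.2 CPM in cycling stem nuclei and 137 CPM in Top2a 0 nuclei. Egr1, an early growth response factor, had 525, 209.5, 617 and 475 CPM in the cycling stem sets and 66.7, 24.4, 134 and 170.3 CPM in the other cycling sets. Every cycling stem set lay above every other set for Egr1. Against Top2a 0 nuclei it had 433 and 477 CPM and was not called, and Fos had 285 and 251 CPM. With the stricter choice of the other cycling nuclei, all 6 immediate early calls were lost. Log2 ratios were then 0.87 for Egr1, 0.65 for Ier2, 0.57 for Fos, 0.22 for Junb and 0.15 for Dusp1. Nr4a1 was no longer measured there. The calls of Dusp1 and Fos were lost in 12 and 10 of 21 alternatives. Interferon response genes had 0 of 15 measured called higher and 1 lower than in Top2a 0 nuclei (median -0.28), and 4 of 11 higher and 0 lower than in the other cycling nuclei (median 0.49), with the viral RNA sensor gene Ddx58 at 61.9 against 19.7 CPM. NF-kB targets had 1 of 9 called lower than in Top2a 0 nuclei, Nfkbiz, at 147 against 285 CPM.

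Metabolic and ribosomal genes showed few calls. Oxidative phosphorylation genes had 0 of 21 measured called against Top2a 0 nuclei (median -0.02) and glycolysis genes 0 of 13 (median -0.07). Cytosolic ribosomal protein genes had 0 of 78 called (median -0.14), with no direction given. Against the other cycling nuclei, 2 of 9 glycolysis genes were called higher, Pkm at 69.5 against 28.5 CPM and Hk2 at 109.9 against 61.3 CPM, and 1 lower, Tpi1, a call lost in 17 of 21 alternatives. Genes called higher than in Top2a 0 nuclei spanned a median of 31.2 kb of genome, those called lower 47.0 kb and all measured genes 39.5 kb. Against the other cycling nuclei the medians were 92.4 kb for genes called higher, 52.5 kb for those called lower and 44.9 kb for all.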
